A study of Homo sapiens with 24 samples.

Results

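The genes described here are 38 interferon-stimulated effectors and nucleic acid sensors, measured in THP1 macrophages that lacked CD33, carried a knockdown of PTPN6, or both. They were chosen by symbol from the 60617 gene identifiers of the count table, as interferon-stimulated genes outside the OAS, IFIT and IFITM families and the STAT and IRF factors. All 38 were found, the gene of the sensor RIG-I under its older symbol DDX58. Of these, 37 had enough counts to be among the 13098 genes tested, and ZBP1 did not. THP1 is a human monocytic leukaemia line, CD33 is a sialic acid receptor of myeloid cells that carries inhibitory motifs, and PTPN6 encodes the phosphatase SHP-1 that such motifs recruit.

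The 4 groups were CD33KO_shPTPN6 (CD33 knockout with a PTPN6 hairpin, 5 libraries), CD33KO_shCTRL (CD33 knockout with empty vector), WT_shPTPN6 (wild type with the PTPN6 hairpin) and WT_shCTRL (wild type with empty vector), the last 3 with 6 libraries each. Cells of every group, controls included, were exposed for 24 hours to lentivirus made in HEK-293FT cells carrying a pLKO.1 plasmid, rested for 48 hours, and selected with 1 µg/ml puromycin. All were then differentiated with 10 ng/ml of the phorbol ester PMA for 48 hours and kept for 48 hours without it, with no interferon treatment named in the labels, so each group is an adherent, PMA-matured macrophage culture. The knockdown rests on 1 hairpin and the control vector holds none. The labels do not say how many knockout clones were used or whether the libraries of a group came from separate cultures, so the p-values measure the spread between libraries, which may be technical.

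Total counts were 2024032 to 2581042 per library in CD33KO_shPTPN6, 2048161 to 3749258 in CD33KO_shCTRL, 3318001 to 6269304 in WT_shPTPN6 and 4170191 to 5700712 in WT_shCTRL. PTPN6 averaged 7.41 ± 2.75 CPM in CD33KO_shPTPN6 (SD, n = 5), 37.7 ± 3.88 CPM in CD33KO_shCTRL, 10.6 ± 1.45 CPM in WT_shPTPN6 and 44.6 ± 6.24 CPM in WT_shCTRL (SD, n = 6 each). It was lower with the hairpin in the knockout line (exact permutation test, two-sided p = 0.00433) and in wild type (p = 0.00216, exact permutation test), the smallest values that these group sizes allow. CD33 averaged 23.5 ± 4.86, 20.2 ± 2.44, 88.8 ± 5.33 and 45.5 ± 3.24 CPM in the same order of groups. CD33 transcript was therefore lower but present in the knockout line; the 3' tags counted here need not lie in the edited part of the gene, which the labels do not place, so this level is no test of the knockout. CPM here means a gene's counts scaled to library size after TMM normalisation. Since every library is a bulk of cells, fewer cells of a type and less RNA per cell cannot be told apart.

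Interferons bind surface receptors whose JAK kinases phosphorylate transcription factors; the complex that forms with IRF9, ISGF3, binds the interferon-stimulated response element in the promoters of target genes. The products include helicases that recognise viral RNA, the ubiquitin-like protein ISG15 with the enzymes that attach and remove it, and effectors that block steps of viral replication. Macrophages express many of these genes at a tonic level without infection, and SHP-1 is known as a phosphatase that can act on JAK kinases.

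**Figure D1:**
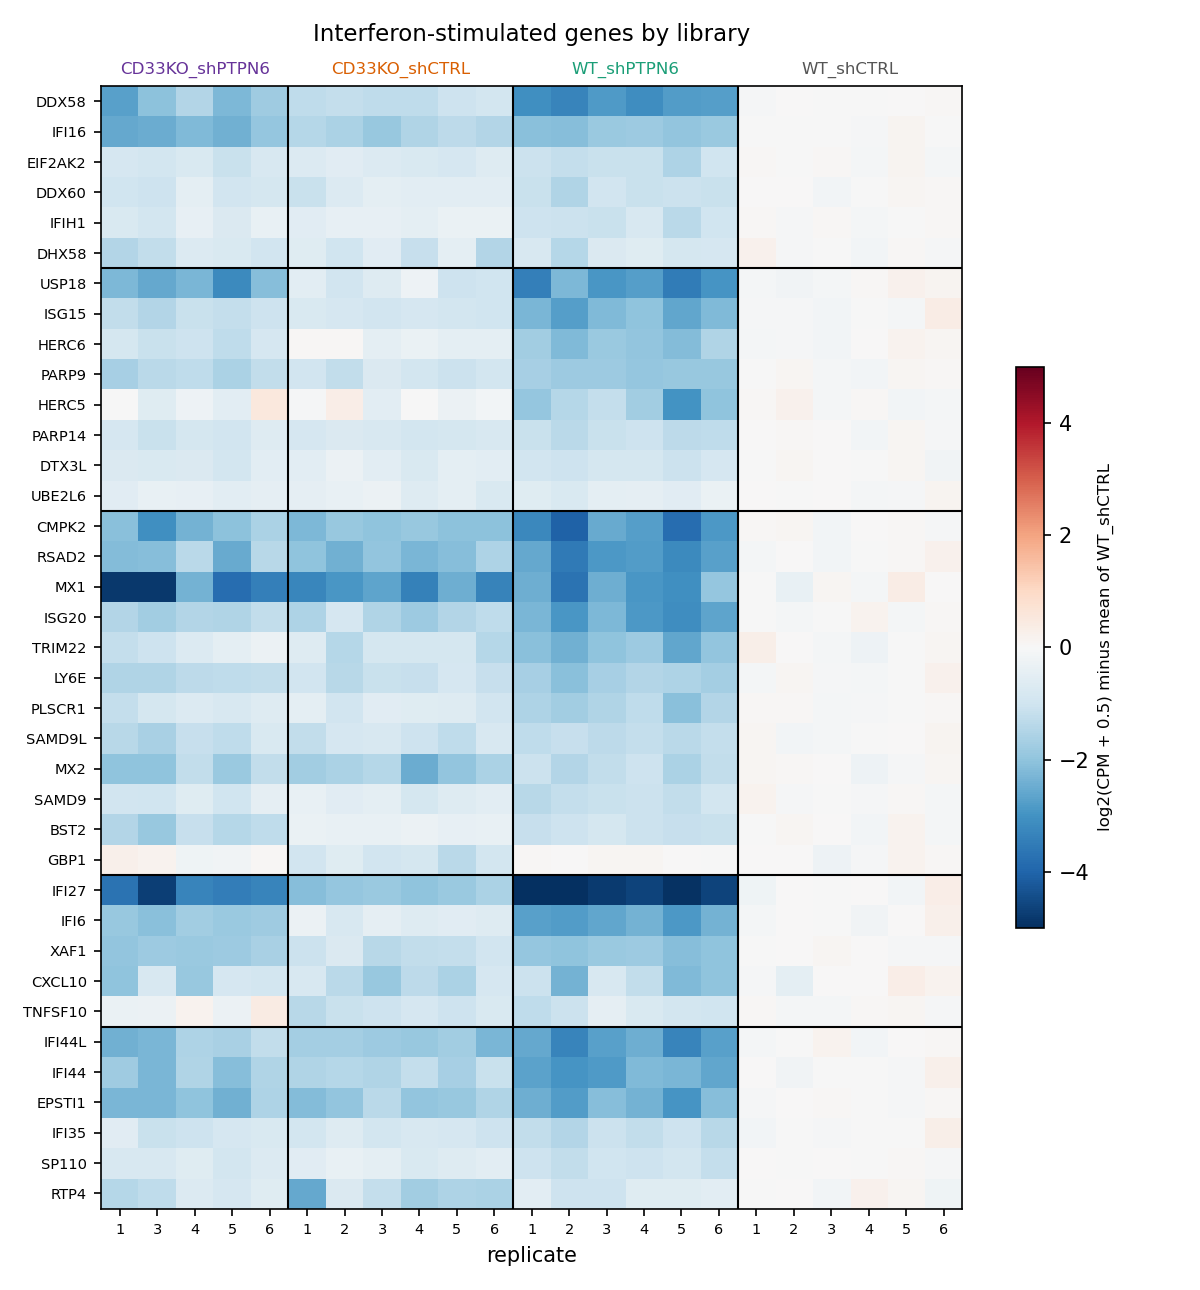
Heat map of the 37 tested genes (rows, grouped by role) in 23 libraries (columns, replicate numbers below, groups above): colour is log2(CPM + 0.5) minus the mean of WT_shCTRL, and the scale ends at 5 in either direction. Blue, the lower side, fills most of the CD33KO_shPTPN6, CD33KO_shCTRL and WT_shPTPN6 columns and is deepest in WT_shPTPN6.

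The promoters of these genes were searched for the response element that ISGF3 binds. The genes were chosen as interferon-stimulated, so a share of matches above that of all genes is not independent of the choice. Promoter windows from RefSeq (GRCh38.p14), 250 bases before to 50 after an annotated start, were held for 32 of the 38 genes, 45 windows in all. The core of that element, GAAA followed by any 2 bases and a second GAAA, was searched on both strands and found in 27 of the 45 windows, against 1255 of 35116 windows of all genes (3.57%). Counted by gene, 23 of 32 had a match (71.9%), against 1195 of 27305 (4.38%). The gamma-activated site TTCNNNGAA, which reads the same on both strands, was found in 11 of 45 windows (24.4%), against 7.66% of all windows, and its GAA can share bases with a match to the response element. A match is a description of letters, and no binding was measured. The sites below are shown for genes with a large change in WT_shPTPN6 or a small p-value of the difference between lines, for the exceptions BST2, GBP1, TNFSF10 and HERC5, and for PARP9 and DTX3L, which share a site. CMPK2 and DDX58, also among the largest changes, had windows without a match, and no window was held for USP18. Capitals mark the match, each with 10 bases on either side, shown 5′ to 3′ on the strand that holds it.
IFI27, chr14:94110618-94110647, opposite strand (-): cattttccagGAAACCGAAActgcagacat
IFI27, chr14:94110631-94110660, gene strand (+): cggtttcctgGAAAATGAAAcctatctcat
RSAD2, chr2:6877622-6877651, opposite strand (-): ttccacatgtGAAACTGAAAgttgaaacag
IFI44L, chr1:78620274-78620303, gene strand (+): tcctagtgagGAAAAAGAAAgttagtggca
IFI44L, chr1:78620365-78620394, gene strand (+): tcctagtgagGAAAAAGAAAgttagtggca
MX1, chr21:41420559-41420588, gene strand (+): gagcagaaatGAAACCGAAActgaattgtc
MX1, chr21:41431844-41431873, opposite strand (-): tttattcacgGAAAGAGAAAcagagtgacc
ISG20, chr15:88638937-88638966, gene strand (+): taacaaactaGAAACTGAAAcagggtcggg
PARP14, chr3:122680800-122680829, gene strand (+): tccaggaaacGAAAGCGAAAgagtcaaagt
IFI44, chr1:78649761-78649790, opposite strand (-): tcagagaaagGAAACTGAAActcagtgtgc
BST2, chr19:17405741-17405770, gene strand (-): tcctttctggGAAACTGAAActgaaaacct
BST2, chr19:17405735-17405764, gene strand (-): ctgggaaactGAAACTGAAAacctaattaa
GBP1, chr1:89065316-89065345, opposite strand (+): agagtaatatGAAACTGAAAgtacttcgtt
TNFSF10, chr3:172523598-172523627, opposite strand (+): ggaaaggaggGAAACTGAAAgaagctcctc
HERC5, chr4:88456984-88457013, opposite strand (-): aatcgaaaagGAAAAGGAAActgtaatgag
HERC5, chr4:88456990-88457019, opposite strand (-): gggcggaatcGAAAAGGAAAaggaaactgt
HERC5, chr4:88457035-88457064, opposite strand (-): agctccagtgGAAAACGAAAcataatgttt
PARP9, chr3:122564322-122564351, opposite strand (+): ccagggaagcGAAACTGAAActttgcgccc
DTX3L, chr3:122564322-122564351, gene strand (+): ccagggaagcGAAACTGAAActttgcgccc

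PARP9 and DTX3L, which run in opposite directions from starts 339 bases apart, share 1 site. The 2 matches of IFI44L lie in identical stretches of 30 bases, 164 and 73 bases before the start. One match of MX1 lies 11 bases after a start. The stretches of IFI27, of BST2 and 2 of those of HERC5 overlap, and the RefSeq start behind the site of RSAD2 differs from the GENCODE start given further on. The genes with a match had a median log2 fold change of -1.58 for WT_shPTPN6 against WT_shCTRL (23 genes), and those without had -1.92 (9 genes).

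**Figure D2:**
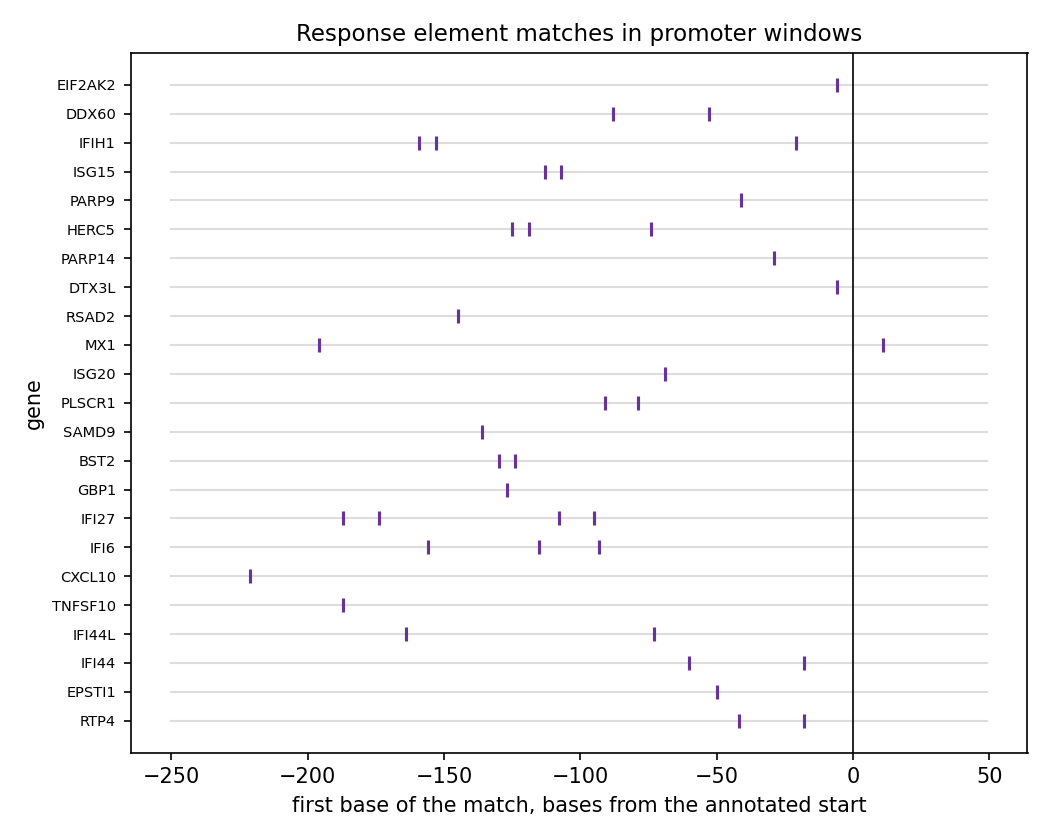
Positions of matches to the core of the interferon-stimulated response element in the promoter windows of the 23 genes that have one (rows), as bases from the annotated start (x axis, 0 at the start); windows of several starts of a gene are overlaid, so one site can appear as more than 1 tick. Nearly all ticks lie before the start, with MX1 holding the one after it.

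Nearly the whole set was lower in each modified group than in wild type with control vector. In CD33KO_shPTPN6, 34 of 37 genes were lower than in WT_shCTRL by edgeR's quasi-likelihood test (adjusted p under 0.05 over all tested genes), none higher, against 31.7% of all tested genes called lower and 32.1% higher; the median log2 fold change was -1.21. In CD33KO_shCTRL, 36 were lower and none higher, against 28.4% of all tested genes lower and 28.3% higher, with a median of -0.98. In WT_shPTPN6, 36 were lower and none higher, against 30.4% of all tested genes lower and 30.2% higher, with a median of -1.68. Over all tested genes the median log2 fold change was 0.00 in the WT_shPTPN6 and CD33KO_shPTPN6 comparisons and -0.01 in the CD33KO_shCTRL one, which all share the WT_shCTRL libraries. At least 2-fold lower were 22 genes in CD33KO_shPTPN6 (12.5% of all tested genes), 18 in CD33KO_shCTRL (7.92%) and 31 in WT_shPTPN6 (9.28%).

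Every library was below every WT_shCTRL library for 34 genes in CD33KO_shPTPN6 (23.1% of all tested genes), for 35 in CD33KO_shCTRL (17.4%) and for 36 in WT_shPTPN6 (19.0%). The summed level of the 38 genes had its lowest, median and highest library at 2090, 2280 and 2725 CPM in CD33KO_shPTPN6, 3439, 3568 and 3909 CPM in CD33KO_shCTRL, 1645, 1867 and 2002 CPM in WT_shPTPN6, and 5877, 6273 and 6780 CPM in WT_shCTRL. The 4 groups did not overlap in this sum. IFI6 alone made up 15.1% to 38.4% of it by library. Without IFI6 the sum still ran 1656 to 2186 CPM in CD33KO_shPTPN6, 2281 to 2426 CPM in CD33KO_shCTRL, 1381 to 1649 CPM in WT_shPTPN6 and 4240 to 4615 CPM in WT_shCTRL.

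Within a group some libraries held many of the highest or lowest values. In CD33KO_shPTPN6, replicate 6 held the highest value for 23 of 37 genes, and replicates 1 and 3 held the lowest for 15 and 13. In WT_shPTPN6, replicates 2 and 5 held the lowest for 17 and 14. The same was not counted over all tested genes, so this need not be particular to the set. Below, the 5 values of CD33KO_shPTPN6 are those of replicates 1, 3, 4, 5 and 6, and the 3 values of each other group are its lowest, median and highest library.

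The cytosolic sensors comprise the RNA helicases DDX58 (RIG-I), IFIH1 (MDA5) and DHX58 (LGP2), the helicase-like DDX60, the double-stranded RNA kinase EIF2AK2 (PKR), the DNA-binding IFI16 and the Z-nucleic-acid sensor ZBP1. All 6 tested sensors were lower than WT_shCTRL in each of the other groups. Over all tested genes, 31.7% were lower in CD33KO_shPTPN6, 28.4% in CD33KO_shCTRL and 30.4% in WT_shPTPN6. Every library was below WT_shCTRL for 23.1%, 17.4% and 19.0% in that order. These shares stand beside the counts of each role class below, which are parts of the totals above. DDX58 stood at 12.8, 20.6, 31.0, 18.0 and 24.9 CPM in CD33KO_shPTPN6 and at 35.1, 37.0 and 44.9 CPM in CD33KO_shCTRL. It stood at 8.43, 10.8 and 12.4 CPM in WT_shPTPN6 and at 84.0, 86.0 and 90.6 CPM in WT_shCTRL. All 4 groups were separate in their library ranges for this RNA sensor, which signals through MAVS when it meets RNA with a 5′ triphosphate. DDX58 fell with knockdown in wild type (log2 fold change -3.01 ± 0.10 SE, adjusted p = 1.01e-51) and with knockout under control vector (log2 fold change -1.15 ± 0.09 SE, adjusted p = 9.63e-23).

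IFI16 was at 41.5, 43.4, 53.0, 45.4 and 64.6 CPM in CD33KO_shPTPN6 libraries and at 66.1, 86.8 and 99.5 CPM in CD33KO_shCTRL. WT_shPTPN6 held 55.1, 63.9 and 69.4 CPM and WT_shCTRL 237, 239.5 and 273 CPM. Every library of the 3 modified groups was below every WT_shCTRL library, and IFI16 was lowest in CD33KO_shPTPN6, where most genes of the set were not. It fell in CD33KO_shPTPN6 (log2 fold change -2.30 ± 0.08 SE, adjusted p = 1.69e-41), in CD33KO_shCTRL (log2 fold change -1.51 ± 0.07 SE, adjusted p = 1.73e-34) and in WT_shPTPN6 (log2 fold change -1.97 ± 0.06 SE, adjusted p = 2.48e-43), each against WT_shCTRL. CD33KO_shPTPN6 libraries held EIF2AK2 at 105, 99.6, 109, 85.6 and 106 CPM, and CD33KO_shCTRL held it at 103, 115 and 126 CPM. Wild-type cells had 63.2, 86.8 and 94.4 CPM in WT_shPTPN6 and 172, 188 and 205 CPM in WT_shCTRL. PKR, which halts translation by phosphorylating eIF2α, kept more of its level than DDX58 or IFI16, with 44.5% of the WT_shCTRL mean in WT_shPTPN6.

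IFIH1, DHX58 and DDX60 had log2 fold changes against WT_shCTRL of -0.62, -1.03 and -0.87 in CD33KO_shPTPN6, -0.42, -0.84 and -0.63 in CD33KO_shCTRL, and -1.07, -0.87 and -1.15 in WT_shPTPN6. LGP2, the product of DHX58, lacks the signalling domains of the other helicases. Its 3 modified groups overlapped one another, at means of 10.4 ± 2.38 CPM in CD33KO_shPTPN6, 11.7 ± 3.02 CPM in CD33KO_shCTRL and 11.5 ± 2.10 CPM in WT_shPTPN6, against 21.4 ± 1.76 CPM in WT_shCTRL. ZBP1 was close to undetected: it had no count in either knockout group, 1 count in WT_shPTPN6 and 9 counts over 4 of 6 WT_shCTRL libraries. A group without a count allows up to 0.277 CPM in CD33KO_shPTPN6 and 0.202 CPM in CD33KO_shCTRL (3 counts over the group, counting error only), against a mean of 0.326 CPM in WT_shCTRL, and at this depth ZBP1 was left untested.

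**Figure D3:**
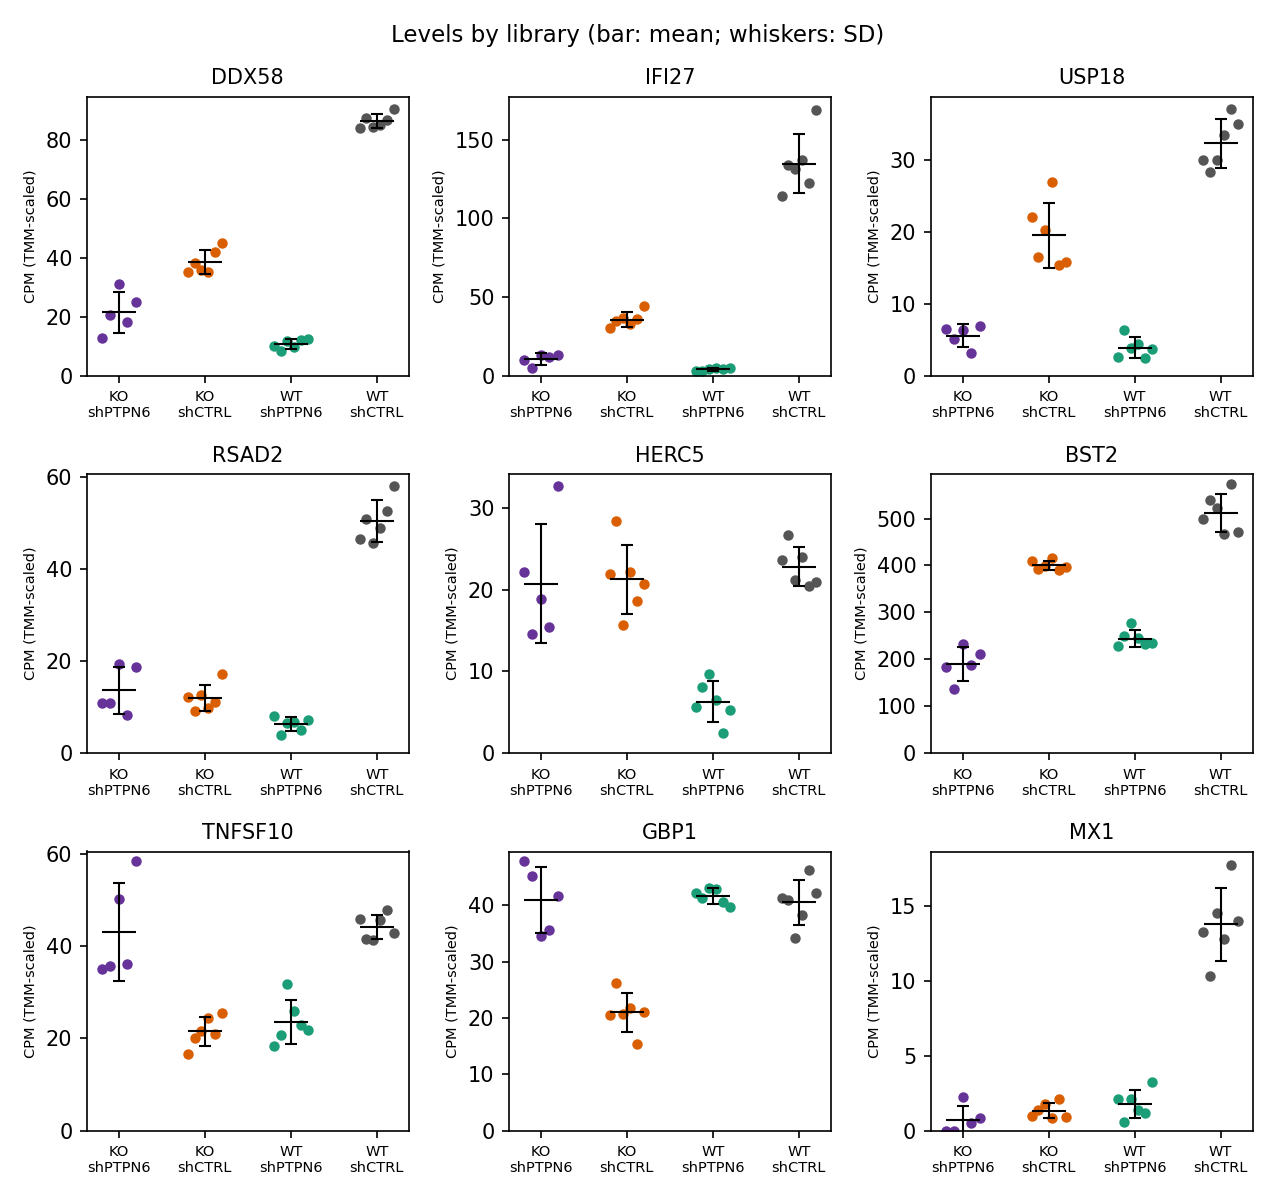
Level of 9 genes (panels) in CPM (y axis, from 0) by library in CD33KO_shPTPN6, CD33KO_shCTRL, WT_shPTPN6 and WT_shCTRL; points are libraries, bars are group means and whiskers are SD. DDX58, IFI27, USP18 and RSAD2 are highest in WT_shCTRL and lowest in WT_shPTPN6, as is HERC5, whose knockout groups lie close to WT_shCTRL, while BST2, TNFSF10, GBP1 and MX1 are lowest in a knockout group.

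ISG15 is a ubiquitin-like protein that UBE2L6 (the E2 enzyme) and HERC5 (the main E3 ligase in human cells) attach to newly made proteins and USP18 removes; USP18 also dampens signalling at the interferon receptor. PARP9 and DTX3L act together as an ADP-ribosyl and ubiquitin ligase pair, PARP14 is a mono-ADP-ribosyltransferase, and HERC6 is a relative of HERC5. All 8 were lower in WT_shPTPN6 than in WT_shCTRL, and 7 of 8 were lower in CD33KO_shPTPN6 and in CD33KO_shCTRL, with HERC5 the exception in both. Among knockout cells, ISG15 measured 137, 118, 151, 141 and 157 CPM in CD33KO_shPTPN6 and 164, 176 and 189 CPM in CD33KO_shCTRL. The wild-type values were 48.2, 67.8 and 79.8 CPM in WT_shPTPN6 and 296, 312 and 421 CPM in WT_shCTRL. The ranges of the 4 groups did not meet. ISG15 fell to 19.6% of its WT_shCTRL mean in WT_shPTPN6 (log2 fold change -2.33 ± 0.10 SE, adjusted p = 5.27e-15).

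USP18 stood at 6.42, 5.03, 6.28, 3.09 and 6.95 CPM in CD33KO_shPTPN6 and at 15.4, 18.4 and 27.0 CPM in CD33KO_shCTRL. It stood at 2.41, 3.80 and 6.32 CPM in WT_shPTPN6 and at 28.4, 31.8 and 37.1 CPM in WT_shCTRL. Both knockdown groups were below both control-vector groups in every library. USP18 was lower with knockdown in the knockout line (log2 fold change -1.77 ± 0.21 SE, adjusted p = 2.88e-12, CD33KO_shPTPN6 against CD33KO_shCTRL) and in wild type (log2 fold change -3.09 ± 0.15 SE, adjusted p = 2.83e-36, WT_shPTPN6 against WT_shCTRL). USP18 has a near-identical copy in the genome between which reads could be split, so its level is uncertain.

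HERC5 was at 22.2, 14.6, 18.9, 15.5 and 32.7 CPM in CD33KO_shPTPN6 libraries and at 15.7, 21.3 and 28.4 CPM in CD33KO_shCTRL. WT_shPTPN6 held 2.41, 6.11 and 9.68 CPM and WT_shCTRL 20.5, 22.5 and 26.8 CPM. HERC5 stood apart from the set: both knockout groups overlapped WT_shCTRL, and only WT_shPTPN6 lay below all others. The log2 fold change against WT_shCTRL was -0.12 ± 0.17 (SE; adjusted p = 0.548) in CD33KO_shPTPN6, -0.12 ± 0.15 (SE; adjusted p = 0.546) in CD33KO_shCTRL and -1.82 ± 0.17 (SE; adjusted p = 8.05e-14) in WT_shPTPN6. Its neighbour HERC6 was lower in all 3, with log2 fold changes of -1.05 in CD33KO_shPTPN6, -0.29 in CD33KO_shCTRL and -1.92 in WT_shPTPN6. The HERC6 call in CD33KO_shCTRL, with overlapping libraries and an adjusted p of 0.0291, was lost in 5 alternatives, where adjusted p reached 0.253.

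CD33KO_shPTPN6 libraries held PARP9 at 43.0, 54.4, 57.0, 45.4 and 58.1 CPM, and CD33KO_shCTRL held it at 57.8, 71.6 and 82.8 CPM. Wild-type cells had 35.5, 37.8 and 43.5 CPM in WT_shPTPN6 and 124, 140.1 and 148 CPM in WT_shCTRL. PARP9 was highest in WT_shCTRL without overlap, and CD33KO_shPTPN6 overlapped both CD33KO_shCTRL and WT_shPTPN6. PARP9 fell in CD33KO_shPTPN6 (log2 fold change -1.41 ± 0.08 SE, adjusted p = 1.01e-31), CD33KO_shCTRL (log2 fold change -0.98 ± 0.07 SE, adjusted p = 1.64e-24) and WT_shPTPN6 (log2 fold change -1.83 ± 0.07 SE, adjusted p = 4.35e-46). Among knockout cells, DTX3L measured 134, 131, 134, 117 and 154 CPM in CD33KO_shPTPN6 and 133, 155 and 182 CPM in CD33KO_shCTRL. The wild-type values were 104, 117 and 124 CPM in WT_shPTPN6 and 195, 224 and 241 CPM in WT_shCTRL. DTX3L, the partner of PARP9, showed the same overlaps. It kept 60.1% of the WT_shCTRL mean in CD33KO_shPTPN6, 69.9% in CD33KO_shCTRL and 51.7% in WT_shPTPN6.

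PARP14 stood at 129.9, 109, 128, 122 and 151 CPM in CD33KO_shPTPN6 and at 124, 132 and 144 CPM in CD33KO_shCTRL. It stood at 93.0, 102 and 113 CPM in WT_shPTPN6 and at 215, 238 and 249 CPM in WT_shCTRL. Of the 3 modified groups, WT_shPTPN6 was lowest for PARP14 and apart from CD33KO_shCTRL. PARP14 fell in CD33KO_shPTPN6 (log2 fold change -0.87 ± 0.06 SE, adjusted p = 1.05e-24), in CD33KO_shCTRL (log2 fold change -0.83 ± 0.06 SE, adjusted p = 1.94e-25) and in WT_shPTPN6 (log2 fold change -1.19 ± 0.06 SE, adjusted p = 1.15e-38). UBE2L6 changed least of the 8 in WT_shPTPN6, at -0.52 ± 0.06 (log2, SE).

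Of the 12 antiviral effectors, 11 were lower in CD33KO_shPTPN6, 12 in CD33KO_shCTRL and 11 in WT_shPTPN6 than in WT_shCTRL, with GBP1 the exception in both knockdown groups. RSAD2 (viperin) makes a chain-terminating nucleotide from CTP, and CMPK2 is a mitochondrial nucleotide kinase encoded next to it. RSAD2 was at 10.9, 10.97, 19.3, 8.25 and 18.8 CPM in CD33KO_shPTPN6 libraries and at 9.17, 11.7 and 17.2 CPM in CD33KO_shCTRL. WT_shPTPN6 held 3.91, 6.67 and 8.09 CPM and WT_shCTRL 45.8, 49.9 and 58.0 CPM. WT_shCTRL libraries were at least 45.8 CPM where no other library passed 19.3 CPM. RSAD2 fell in CD33KO_shPTPN6 (log2 fold change -1.86 ± 0.14 SE, adjusted p = 4.64e-23), in CD33KO_shCTRL (log2 fold change -2.07 ± 0.13 SE, adjusted p = 4.25e-28) and in WT_shPTPN6 (log2 fold change -2.95 ± 0.13 SE, adjusted p = 1.82e-40).

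CD33KO_shPTPN6 libraries held CMPK2 at 13.3, 6.40, 10.8, 13.4 and 19.2 CPM, and CD33KO_shCTRL held it at 11.7, 13.8 and 15.1 CPM. Wild-type cells had 3.01, 6.65 and 9.68 CPM in WT_shPTPN6 and 52.2, 58.8 and 62.1 CPM in WT_shCTRL. CMPK2 was likewise highest in WT_shCTRL without overlap. It had a log2 fold change against WT_shCTRL of -2.18 ± 0.15 in CD33KO_shPTPN6, -2.06 ± 0.13 in CD33KO_shCTRL and -3.13 ± 0.13 in WT_shPTPN6 (SE). Among knockout cells, ISG20 measured 19.8, 16.4, 19.8, 19.6 and 23.7 CPM in CD33KO_shPTPN6 and 15.4, 19.6 and 30.7 CPM in CD33KO_shCTRL. The wild-type values were 6.01, 7.79 and 11.3 CPM in WT_shPTPN6 and 51.7, 55.0 and 63.6 CPM in WT_shCTRL. The 2 knockout groups overlapped fully for this RNA exonuclease, and all modified libraries were below WT_shCTRL. ISG20 fell in WT_shPTPN6 (log2 fold change -2.65 ± 0.11 SE, adjusted p = 2.62e-41).

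MX1 and MX2 encode dynamin-like GTPases that trap viral nucleocapsids. MX1 stood at 0, 0, 2.24, 0.515 and 0.818 CPM in CD33KO_shPTPN6 and at 0.856, 1.18 and 2.13 CPM in CD33KO_shCTRL. It stood at 0.602, 1.73 and 3.24 CPM in WT_shPTPN6 and at 10.3, 13.6 and 17.8 CPM in WT_shCTRL. MX1 was near the limit of detection in every modified group, with 0 to 5 counts per library in CD33KO_shPTPN6, 2 to 8 in CD33KO_shCTRL and 2 to 13 in WT_shPTPN6, against 46 to 103 in WT_shCTRL. Its log2 fold changes against WT_shCTRL were -4.17 ± 0.37 in CD33KO_shPTPN6, -3.26 ± 0.28 in CD33KO_shCTRL and -2.87 ± 0.23 in WT_shPTPN6 (SE). MX2 was at 21.2, 21.5, 36.8, 23.7 and 36.8 CPM in CD33KO_shPTPN6 libraries and at 15.4, 27.6 and 32.8 CPM in CD33KO_shCTRL. WT_shPTPN6 held 29.2, 36.8 and 43.1 CPM and WT_shCTRL 74.0, 91.3 and 95.2 CPM. MX2 had more CPM in every group of this 3'-end assay, and its 3 modified groups overlapped one another below WT_shCTRL.

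BST2 (tetherin), which holds budding virions at the cell surface, had its lowest mean in CD33KO_shPTPN6, as did IFI16, MX1 and DHX58. For MX1 and DHX58 the difference from the next lowest group was not called. CD33KO_shPTPN6 libraries held BST2 at 184, 136, 232, 188 and 211 CPM, and CD33KO_shCTRL held it at 389, 398 and 415 CPM. Wild-type cells had 227, 239.9 and 277 CPM in WT_shPTPN6 and 466, 511 and 573 CPM in WT_shCTRL. Knockdown lowered BST2 in each line, with a log2 fold change of -1.07 ± 0.09 (SE; adjusted p = 3.02e-11) for CD33KO_shPTPN6 against CD33KO_shCTRL and -1.07 ± 0.07 (SE; adjusted p = 2.61e-13) for WT_shPTPN6 against WT_shCTRL. Both knockdown groups overlapped each other and were below both control-vector groups.

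GBP1, a guanylate-binding GTPase that interferon-gamma induces strongly, was the one tested gene whose mean was not highest in WT_shCTRL. Among knockout cells, GBP1 measured 47.9, 45.2, 34.6, 35.6 and 41.7 CPM in CD33KO_shPTPN6 and 15.4, 20.9 and 26.1 CPM in CD33KO_shCTRL. The wild-type values were 39.6, 41.7 and 43.1 CPM in WT_shPTPN6 and 34.1, 41.1 and 46.2 CPM in WT_shCTRL. Only CD33KO_shCTRL lay apart, below every library of the other 3 groups. GBP1 was lower in CD33KO_shCTRL than in WT_shCTRL (log2 fold change -0.98 ± 0.11 SE, adjusted p = 2.72e-14), and the change against WT_shCTRL was 0.02 ± 0.10 (SE; adjusted p = 0.891) in CD33KO_shPTPN6 and 0.04 ± 0.08 (SE; adjusted p = 0.693) in WT_shPTPN6. With the 95% interval of the last running from -0.12 to 0.21, a fall as large as the set's median was outside it.

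TRIM22 (an E3 ubiquitin ligase), SAMD9 and SAMD9L (inhibitors of translation in poxvirus infection), PLSCR1 (a phospholipid scramblase) and LY6E (a GPI-anchored surface protein) were lower than WT_shCTRL in all 3 modified groups without overlap. Their log2 fold changes ran from -1.36 (LY6E) to -0.71 (TRIM22) in CD33KO_shPTPN6, from -1.09 (LY6E) to -0.58 (SAMD9) in CD33KO_shCTRL, and from -2.15 (TRIM22) to -1.16 (SAMD9) in WT_shPTPN6. TRIM22 thus had the largest of these falls in WT_shPTPN6 and the smallest in CD33KO_shPTPN6. SAMD9L stood at 37.0, 31.5, 44.4, 40.7 and 57.7 CPM in CD33KO_shPTPN6 and at 40.7, 51.0 and 56.7 CPM in CD33KO_shCTRL. It stood at 37.9, 41.1 and 43.7 CPM in WT_shPTPN6 and at 88.7, 97.7 and 109 CPM in WT_shCTRL. All 3 modified groups overlapped one another for SAMD9L.

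The secreted ligands and death-related genes include the chemokine CXCL10, the death ligand TNFSF10 (TRAIL), XAF1, which binds the caspase inhibitor XIAP, and the small membrane proteins IFI6 and IFI27. All 5 were lower in CD33KO_shCTRL and in WT_shPTPN6, and 4 of 5 in CD33KO_shPTPN6, each against WT_shCTRL. IFI27 was at 9.88, 4.57, 13.0, 11.9 and 13.1 CPM in CD33KO_shPTPN6 libraries and at 30.3, 35.3 and 44.0 CPM in CD33KO_shCTRL. WT_shPTPN6 held 2.91, 4.16 and 4.98 CPM and WT_shCTRL 114, 133 and 169 CPM. WT_shPTPN6 was lowest and met CD33KO_shPTPN6, and IFI27 had the largest change of the set in WT_shPTPN6. It fell to 7.78% of the WT_shCTRL mean in CD33KO_shPTPN6 (log2 fold change -3.67 ± 0.13 SE, adjusted p = 5.88e-39), 26.5% in CD33KO_shCTRL (log2 fold change -1.91 ± 0.09 SE, adjusted p = 1.44e-30) and 2.99% in WT_shPTPN6 (log2 fold change -5.07 ± 0.12 SE, adjusted p = 1.6e-49).

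IFI6 had the highest mean CPM of the set in every group, on the scale of a 3'-end assay in which counts do not grow with transcript length. CD33KO_shPTPN6 libraries held IFI6 at 491, 434, 551, 509 and 539 CPM, and CD33KO_shCTRL held it at 1062, 1217 and 1499 CPM. Wild-type cells had 253, 294 and 356 CPM in WT_shPTPN6 and 1638, 1833 and 2165 CPM in WT_shCTRL. The 4 ranges did not meet, and the knockdown groups lay below the control-vector groups. Knockdown lowered IFI6 in the knockout line (log2 fold change -1.30 ± 0.10 SE, adjusted p = 1.5e-09) and in wild type (log2 fold change -2.61 ± 0.10 SE, adjusted p = 1.32e-15). Among knockout cells, XAF1 measured 50.4, 57.1, 56.1, 56.7 and 65.4 CPM in CD33KO_shPTPN6 and 77.3, 91.1 and 123 CPM in CD33KO_shCTRL. The wild-type values were 46.0, 51.1 and 56.3 CPM in WT_shPTPN6 and 195, 202 and 214 CPM in WT_shCTRL. CD33KO_shPTPN6 and WT_shPTPN6 overlapped for XAF1, and CD33KO_shCTRL lay between them and WT_shCTRL.

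TNFSF10 ran against the set. TNFSF10 stood at 35.1, 35.6, 50.3, 36.1 and 58.5 CPM in CD33KO_shPTPN6 and at 16.6, 21.3 and 25.5 CPM in CD33KO_shCTRL. It stood at 18.3, 22.4 and 31.9 CPM in WT_shPTPN6 and at 41.4, 44.2 and 47.9 CPM in WT_shCTRL. CD33KO_shPTPN6 and WT_shCTRL overlapped at the high level, CD33KO_shCTRL and WT_shPTPN6 at the low one. Knockdown raised TNFSF10 in the knockout line (log2 fold change 1.01 ± 0.13 SE, adjusted p = 8.21e-10) and lowered it in wild type (log2 fold change -0.90 ± 0.10 SE, adjusted p = 1.14e-12); CD33KO_shPTPN6 against WT_shCTRL gave -0.03 ± 0.11 (SE; adjusted p = 0.85). CXCL10 was scarce, with 5 to 14 counts per library in CD33KO_shPTPN6, 6 to 14 in CD33KO_shCTRL and 6 to 36 in WT_shPTPN6, against 36 to 84 in WT_shCTRL, and was lower in all 3 modified groups.

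The 6 less characterised genes were lower than WT_shCTRL in all 3 modified groups, every library apart. Over all tested genes this held for 23.1% in CD33KO_shPTPN6, 17.4% in CD33KO_shCTRL and 19.0% in WT_shPTPN6, each group taken alone. IFI44 was at 23.7, 16.9, 28.7, 18.6 and 29.4 CPM in CD33KO_shPTPN6 libraries and at 26.3, 30.0 and 38.7 CPM in CD33KO_shCTRL. WT_shPTPN6 held 10.2, 13.0 and 17.8 CPM and WT_shCTRL 73.4, 82.5 and 98.3 CPM. IFI44 was lowest in WT_shPTPN6, whose range met only that of CD33KO_shPTPN6. It fell in CD33KO_shPTPN6 (log2 fold change -1.82 ± 0.11 SE, adjusted p = 3.72e-28), CD33KO_shCTRL (log2 fold change -1.42 ± 0.10 SE, adjusted p = 4.62e-25) and WT_shPTPN6 (log2 fold change -2.63 ± 0.10 SE, adjusted p = 8.6e-44). IFI44L, its neighbour and relative, averaged 41.1 ± 13.9 CPM in CD33KO_shPTPN6, 38.3 ± 5.44 CPM in CD33KO_shCTRL, 19.5 ± 4.81 CPM in WT_shPTPN6 and 139.6 ± 10.5 CPM in WT_shCTRL (SD, n = 5, 6, 6 and 6).

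CD33KO_shPTPN6 libraries held SP110 at 99.8, 100.1, 112, 90.7 and 108 CPM, and CD33KO_shCTRL held it at 101, 119 and 132 CPM. Wild-type cells had 73.5, 84.1 and 91.4 CPM in WT_shPTPN6 and 168, 174 and 179 CPM in WT_shCTRL. SP110, a nuclear body protein, was highest in WT_shCTRL without overlap and kept 47.8% of that level in WT_shPTPN6. Among knockout cells, IFI35 measured 50.9, 34.7, 36.4, 41.8 and 44.2 CPM in CD33KO_shPTPN6 and 36.1, 40.7 and 48.1 CPM in CD33KO_shCTRL. The wild-type values were 27.1, 31.7 and 36.7 CPM in WT_shPTPN6 and 68.0, 73.0 and 90.9 CPM in WT_shCTRL. The 3 modified groups of IFI35, whose product binds NMI in the cytosol, overlapped one another below WT_shCTRL.

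EPSTI1, first found in epithelial cells next to stroma, had log2 fold changes against WT_shCTRL of -2.06 in CD33KO_shPTPN6, -1.80 in CD33KO_shCTRL and -2.42 in WT_shPTPN6, all called. RTP4 stood at 4.94, 5.49, 8.53, 7.73 and 8.997 CPM in CD33KO_shPTPN6 and at 1.96, 4.46 and 8.25 CPM in CD33KO_shCTRL. It stood at 6.62, 9.02 and 9.71 CPM in WT_shPTPN6 and at 12.1, 14.1 and 16.3 CPM in WT_shCTRL. RTP4, a receptor transporter protein, was lowest in CD33KO_shCTRL, with overlap between all 3 modified groups.

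PTPN6 knockdown was next compared between the lines. In the knockout line, CD33KO_shPTPN6 against CD33KO_shCTRL, 14 genes were lower and 2 higher (adjusted p under 0.05, edgeR), against 21.6% of all tested genes lower and 20.5% higher; the remaining 21 were not called, and the median log2 fold change was -0.20 beside -0.01 over all tested genes. In 9 genes every CD33KO_shPTPN6 library was below every CD33KO_shCTRL library (12.4% of all tested genes), and in 2 above (11.8%). The 14 were ISG15, IFI6, IFI16, IFI27, IFI44, XAF1, HERC6, DDX58, USP18, PARP9, DTX3L, EIF2AK2, SP110 and BST2, and the 2 higher ones TNFSF10 and GBP1. At least 2-fold lower were USP18, IFI27, IFI6 and BST2, which makes 4 genes (6.07% of all tested genes). The call of EIF2AK2 (adjusted p = 0.0484) was lost in 10 alternatives, with adjusted p between 0.0212 and 0.213 over all that were run. The calls of ISG15, SP110, IFI44 and DTX3L were lost in 6, 3, 2 and 1, with adjusted p up to 0.094, and leaving out CD33KO_shPTPN6 replicate 5 left 9 genes lower.

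**Figure D4:**
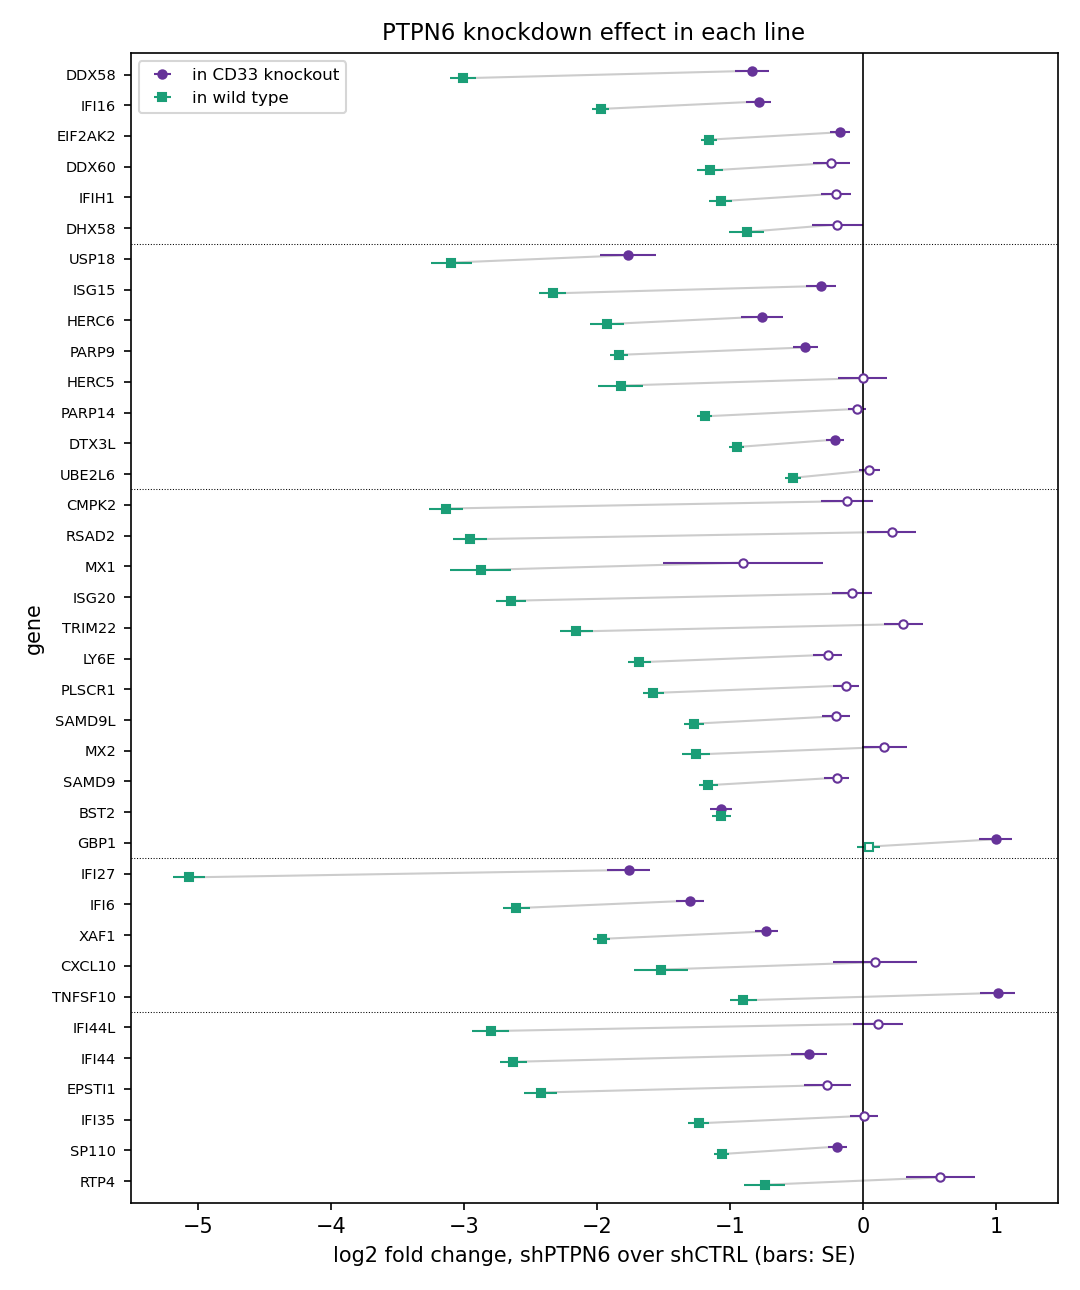
Log2 fold change of shPTPN6 over shCTRL (x axis, bars SE) for the 37 tested genes (rows, grouped by role), in the CD33 knockout line (circles) and in wild type (squares); filled symbols passed the test and open ones did not. The square lies left of the circle in every row but that of BST2, where the symbols coincide at -1.07.

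The difference between these knockdown effects, knockout line minus wild type, was above 0 in 36 of 37 genes past the threshold, against 14.5% of all tested genes, and none was below 0, against 13.9%. Its median was 1.33 log2 units, beside 0.00 over all tested genes. The smallest adjusted p-values of this interaction by edgeR's quasi-likelihood test were those of RSAD2 (3.17 ± 0.23 SE, adjusted p = 4.52e-22), ISG20 (2.56 ± 0.20 SE, adjusted p = 1.45e-21), PARP14 (1.15 ± 0.09 SE, adjusted p = 1.64e-21), DDX58 (2.17 ± 0.17 SE, adjusted p = 1.05e-20) and IFI44 (2.22 ± 0.18 SE, adjusted p = 4.17e-20). RSAD2, ISG20 and PARP14 had knockdown changes of 0.22, -0.08 and -0.04 in the knockout line and -2.95, -2.65 and -1.19 in wild type. The largest difference was that of IFI27 (3.31 ± 0.25 SE, adjusted p = 1.92e-18). BST2 had none within -0.22 to 0.21 log2 units (95% interval), at -0.00 ± 0.11 (SE; adjusted p = 0.995). MX1 (1.97 ± 0.76 SE, adjusted p = 0.0405) passed narrowly, and its call was lost in 11 alternatives. Without CD33KO_shPTPN6 replicate 4, the one of its group with more than 1 CPM, it was 0.96 with an adjusted p of 0.586. Over the alternatives its adjusted p ran from 0.0161 to 0.586.

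The same interaction read on the log scale says that the fall in CD33KO_shPTPN6 was smaller than the sum of the single falls. Adding the log2 fold changes of CD33KO_shCTRL and WT_shPTPN6 gave a median of -2.77 over the 37 genes, and CD33KO_shPTPN6 had -1.21. In 23 of 37 genes the group means, high to low, ran WT_shCTRL, CD33KO_shCTRL, CD33KO_shPTPN6, WT_shPTPN6. In 6 more the 2 knockout groups changed places. How many of all tested genes had either order was not counted. Neighbours in these orders did not always differ. In the first order the 2 knockout groups had no call for ISG20, HERC5, CMPK2, IFIH1, EPSTI1, SAMD9, SAMD9L, PARP14, DDX60, PLSCR1 and LY6E. For ISG20 they gave a log2 fold change of -0.08 ± 0.15 (SE, edgeR adjusted p = 0.697). In the 6 with changed places they also had no call.

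CD33 knockout was then compared between the vectors. With the PTPN6 hairpin, CD33KO_shPTPN6 against WT_shPTPN6, 23 genes were higher and 4 lower, against 29.0% of all tested genes higher and 27.5% lower; the median log2 fold change was 0.38, beside 0.01 over all tested genes. In 11 genes every CD33KO_shPTPN6 library was above every WT_shPTPN6 library (19.1% of all tested genes), and in none was every one below (18.1%). Of the 36 genes lower in CD33KO_shCTRL than in WT_shCTRL, 22 were higher in CD33KO_shPTPN6 than in WT_shPTPN6. How many of all tested genes changed direction in this way was not counted. The largest rise was that of HERC5 (log2 fold change 1.70 ± 0.20 SE, adjusted p = 2.53e-10), followed by TRIM22 (log2 fold change 1.45 ± 0.15 SE, adjusted p = 1.48e-13) and IFI27 (log2 fold change 1.40 ± 0.23 SE, adjusted p = 1.89e-07). IFI16, MX1, MX2 and BST2 were lower in both comparisons, with log2 fold changes of -0.32, -1.29, -0.38 and -0.36 with the hairpin and -1.51, -3.26, -1.80 and -0.36 with control vector. With the hairpin the calls of MX1 and MX2 were each lost without CD33KO_shPTPN6 replicate 1, 3 or 5, which left 2 genes lower. That of MX1 was also lost without WT_shPTPN6 replicate 6 and with libraries thinned to equal depth.

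**Figure D5:**
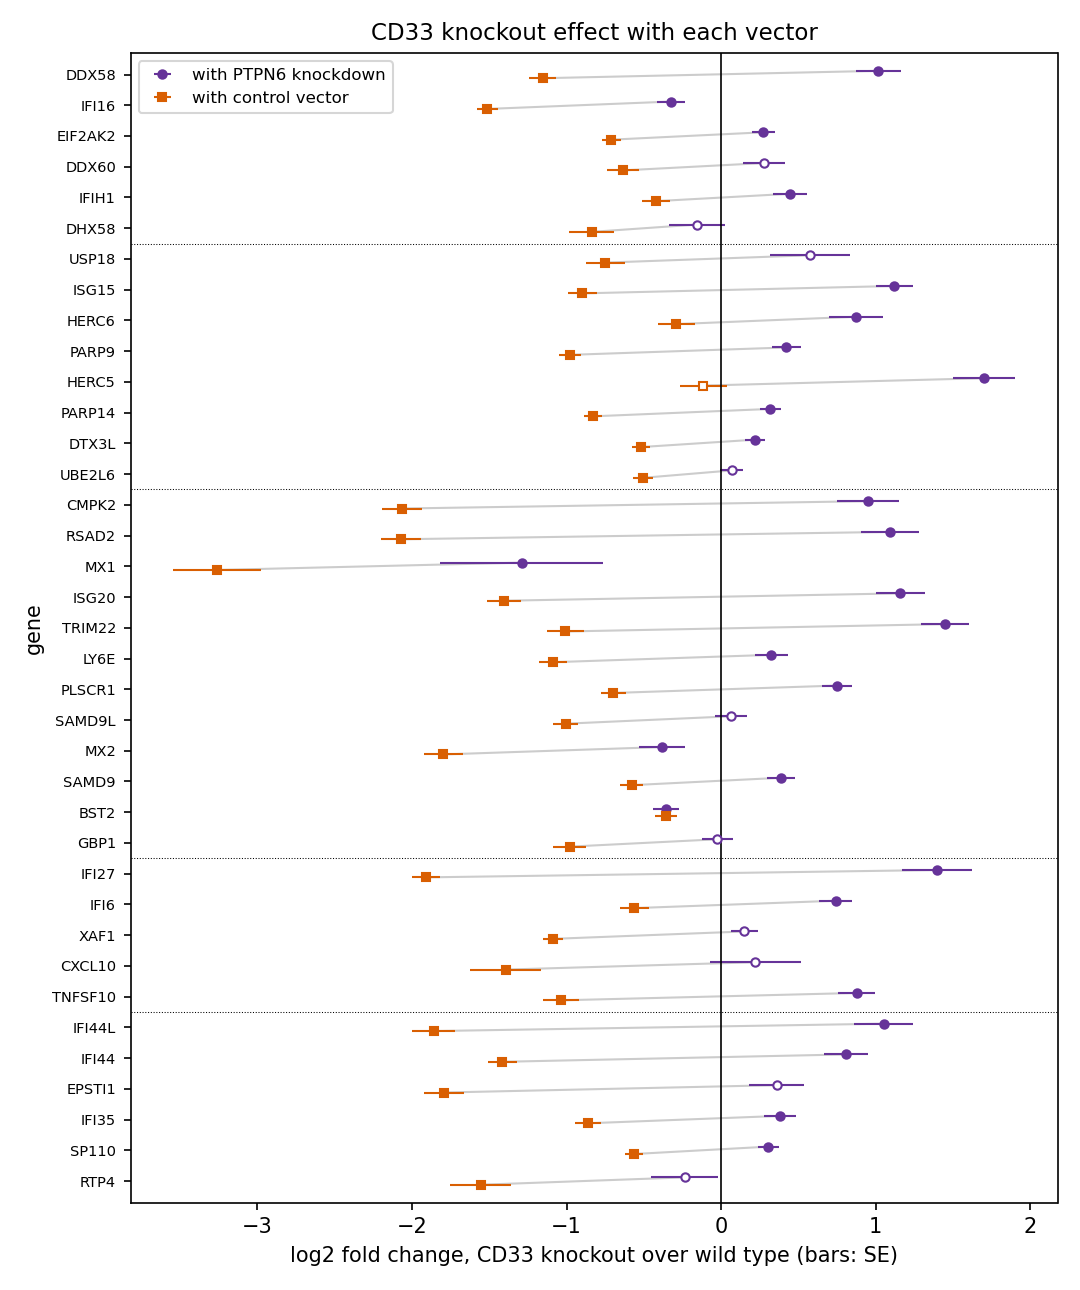
Log2 fold change of CD33 knockout over wild type (x axis, bars SE) for the 37 tested genes (rows, grouped by role), with PTPN6 knockdown (circles) and with control vector (squares); filled symbols passed the test and open ones did not. Squares lie left of 0 in all rows and 30 of the 37 circles right of it; the 7 circles left of 0 are IFI16, MX1, MX2 and BST2, which passed the test, and DHX58, RTP4 and GBP1, which did not.

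The single modifications were also set against each other. CD33KO_shCTRL was higher than WT_shPTPN6 in 29 genes and lower in 3, against 33.1% of all tested genes higher and 31.4% lower, with a median log2 difference of 0.63 beside 0.02 over all tested genes. In 24 genes every CD33KO_shCTRL library was above every WT_shPTPN6 library (21.3%), and in 1, GBP1, below (20.5%). The largest differences were those of IFI27 (log2 fold change 3.16 ± 0.16 SE, adjusted p = 1.2e-29), USP18 (log2 fold change 2.34 ± 0.18 SE, adjusted p = 1.9e-22) and IFI6 (log2 fold change 2.04 ± 0.10 SE, adjusted p = 7.75e-14). The 3 lower genes were GBP1 (-1.02), RTP4 (-0.82) and MX2 (-0.54).

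Several genes of the set are neighbours, with starts within 200 kb of each other in GENCODE release 29 (GRCh38). IFI44L (chr1:78619922-78646145) and IFI44 (chr1:78649796-78664078) had interactions of 2.91 ± 0.24 and 2.22 ± 0.18 log2 units (SE). RSAD2 (chr2:6865806-6898239) and CMPK2 (chr2:6840570-6866635) overlap by 830 bases at their starts on opposite strands. Their starts lie 829 bases from each other, and their interactions were 3.17 ± 0.23 and 3.01 ± 0.25. HERC6 (chr4:88378739-88443111) and HERC5 (chr4:88457117-88506163) had knockdown changes of -0.76 ± 0.16 and -0.00 ± 0.18 in the knockout line. MX2 (chr21:41361943-41409390) and MX1 (chr21:41420304-41459214) had means of 28.0 and 0.716 CPM in CD33KO_shPTPN6 and 88.5 and 13.8 CPM in WT_shCTRL. PARP9 (chr3:122527924-122564577) and DTX3L (chr3:122564238-122575203) overlap by 340 bases at their starts on opposite strands, with PARP14 (chr3:122680618-122730840) further along and SAMD9 and SAMD9L side by side on chromosome 7. Whether counting used strand is not given in the sources used here, so counts of RSAD2 and CMPK2, PARP9 and DTX3L, TRIM22 and TRIM5, SP110 and SP140, and EIF2AK2 and GPATCH11 could hold reads of the partner where they overlap.

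The other genes of the pathway were read from lists of symbols. Beside the counts that follow stand the shares over all tested genes: against WT_shCTRL, 31.7% were lower and 32.1% higher in CD33KO_shPTPN6, 28.4% lower and 28.3% higher in CD33KO_shCTRL, and 30.4% lower and 30.2% higher in WT_shPTPN6. The 11 OAS, IFIT and IFITM genes were all lower than WT_shCTRL in CD33KO_shPTPN6, CD33KO_shCTRL and WT_shPTPN6, with median log2 fold changes of -1.78, -1.36 and -2.03. With knockdown in the knockout line 4 of them were lower and 7 not called (21.6% of all tested genes were lower), and the interaction was called above 0 in all 11 (14.5%). IRF7, an amplifier of type I interferon induction, averaged 19.0 ± 2.66 CPM in CD33KO_shPTPN6, 33.7 ± 4.91 CPM in CD33KO_shCTRL, 8.98 ± 1.14 CPM in WT_shPTPN6 and 45.5 ± 5.88 CPM in WT_shCTRL (SD, n = 5, 6, 6 and 6). IRF9, a subunit of ISGF3, averaged 22.4 ± 5.11 CPM in CD33KO_shPTPN6, 20.1 ± 8.30 CPM in CD33KO_shCTRL, 12.9 ± 1.90 CPM in WT_shPTPN6 and 20.8 ± 4.84 CPM in WT_shCTRL, and of the modified groups WT_shPTPN6 alone passed the test against WT_shCTRL. SOCS1, a feedback inhibitor of JAK kinases, averaged 6.45 ± 1.00 CPM in CD33KO_shPTPN6, 11.6 ± 3.32 CPM in CD33KO_shCTRL, 6.55 ± 2.44 CPM in WT_shPTPN6 and 9.63 ± 1.56 CPM in WT_shCTRL.

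The 7 interferon genes listed were IFNA1, IFNB1, IFNL1, IFNL2, IFNL3, IFNG and IFNE, and other interferon genes were not looked up. Of the 7, 6 had no count in any library, and IFNB1 had 1 count, in WT_shCTRL. A gene without a count could still lie at up to 0.277 CPM in CD33KO_shPTPN6 and 0.0994 CPM in WT_shCTRL (3 counts over the group, counting error only). Of 8 receptor and JAK genes tested, 6 were higher and none lower in CD33KO_shPTPN6 than in CD33KO_shCTRL (20.5% and 21.6% of all tested genes). Against WT_shCTRL, 4 were higher and 1 lower in WT_shPTPN6, 3 higher and 3 lower in CD33KO_shCTRL, and 5 higher and 1 lower in CD33KO_shPTPN6. IFNGR1, lower in all 3, averaged 67.2 ± 6.03 CPM in CD33KO_shPTPN6 and 43.15 ± 10.5 CPM in CD33KO_shCTRL. Its means were 151.5 ± 9.82 CPM in WT_shPTPN6 and 202 ± 3.98 CPM in WT_shCTRL. IFNAR2, a chain of the type I receptor, averaged 163 ± 7.32 CPM in CD33KO_shPTPN6, 105 ± 8.42 CPM in CD33KO_shCTRL, 195 ± 10.1 CPM in WT_shPTPN6 and 117 ± 5.54 CPM in WT_shCTRL. Among 13 tested genes of sensor signalling, 5 were lower and 4 higher in CD33KO_shPTPN6, 5 lower and 2 higher in CD33KO_shCTRL, and 4 lower and 6 higher in WT_shPTPN6, each against WT_shCTRL. TRIM25, a ubiquitin ligase of the RIG-I pathway, was lower in all 3, as were STING1 and TLR7, whose falls were larger. STING1 had log2 fold changes of -2.64 in CD33KO_shPTPN6, -1.96 in CD33KO_shCTRL and -1.12 in WT_shPTPN6. TLR7 was scarce, with a mean of 11.2 CPM in WT_shCTRL and 3.64 CPM or less in the other groups. Those higher in WT_shPTPN6 included IKBKE, TICAM1 and MAVS. Of 10 tested genes that lean towards interferon-gamma, 5 were higher and 3 lower in CD33KO_shPTPN6, 5 higher and 4 lower in CD33KO_shCTRL, and 4 higher and 2 lower in WT_shPTPN6. IRF1, a transcription factor of that response, averaged 139 ± 9.31 CPM in CD33KO_shPTPN6, 60.4 ± 6.80 CPM in CD33KO_shCTRL, 107 ± 4.27 CPM in WT_shPTPN6 and 48.2 ± 2.38 CPM in WT_shCTRL.

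Levels of some cell type markers and RNA composition also differed between the groups. The 12 macrophage markers summed to 3324 to 3576 CPM in CD33KO_shPTPN6, 1729 to 1989 CPM in CD33KO_shCTRL, 4241 to 4594 CPM in WT_shPTPN6 and 2871 to 3294 CPM in WT_shCTRL, and 11 were tested, MRC1 being near 0. Of these, 5 were higher and 5 lower in CD33KO_shPTPN6 than in WT_shCTRL, and 3 higher and 6 lower in CD33KO_shCTRL. In WT_shPTPN6, 9 were higher and 2 lower. Over all tested genes 28.3% to 32.1% were called in each direction. CD14, TYROBP and FCER1G had the highest means of the list in every group. LYZ averaged 5.66, 3.49, 227 and 26.1 CPM in the same order of groups as the sums, and CD163 2.42, 2.41, 89.8 and 23.0 CPM. The list for plasmacytoid dendritic cells, a main source of type I interferon in blood, summed to 86.6 to 107 CPM in CD33KO_shPTPN6, 152.5 to 185 CPM in CD33KO_shCTRL, 38.5 to 50.9 CPM in WT_shPTPN6 and 116 to 137 CPM in WT_shCTRL. IL3RA and TCF4 carried it, 2 of the 4 genes, while the defining CLEC4C had no count and LILRA4 had 1. The 4 epithelial markers summed to 63.4 to 82.0 CPM in CD33KO_shPTPN6, 45.3 to 70.2 CPM in CD33KO_shCTRL, 54.1 to 92.6 CPM in WT_shPTPN6 and 15.1 to 30.8 CPM in WT_shCTRL, nearly all of it CDH1. The summed fibroblast markers overlapped between the groups, while 1 of the 4, PDGFRA, ran from 10.3 to 16.3 CPM in CD33KO_shPTPN6, 15.6 to 27.9 CPM in CD33KO_shCTRL, 4.22 to 5.63 CPM in WT_shPTPN6 and 10.3 to 14.1 CPM in WT_shCTRL. T and NK cell markers summed to at most 13.0 CPM and B cell markers to at most 8.995 CPM in any library. The share of mitochondrial counts was 6.36% to 6.55% in CD33KO_shPTPN6, 6.53% to 7.13% in CD33KO_shCTRL, 7.85% to 8.70% in WT_shPTPN6 and 5.86% to 6.54% in WT_shCTRL, and ribosomal protein genes held 6.84% to 7.23%, 4.16% to 4.40%, 8.47% to 8.75% and 5.72% to 6.74% in that order. The part of these differences in the levels of the interferon-stimulated genes was not tested.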

How the data were processed

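Libraries were made from 100 ng of RNA with a 3'-end kit, per the labels, so a count reflects transcripts near their end regardless of length. The deposited table holds raw counts per gene. Tools listed in the submitters' processing notes are STAR 2.7.3a, Subread 2.0.0 with featureCounts, bcl2fastq, DESeq2 1.26.0 and R 3.6.1, with genome build hg38; parameters, annotation release and strand setting are not given in the sources used here. Of 24 labelled samples, 23 had a column; CD33KO_shPTPN6 replicate 2 was not analysed here. Symbols were found for 60261 of 60617 identifiers. DDX58, now named RIGI, was matched by its name in GENCODE release 29.

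Genes were kept by filterByExpr, scaled by TMM and fitted over all 4 groups by a robust quasi-likelihood model (edgeR 4.0.16 with limma 3.58.1, R 4.3.3), with 7 comparisons and Benjamini-Hochberg adjustment over 13098 genes at 0.05. The SE is the log2 fold change divided by the root of F. The fit was tested on simulated data. Replicate numbers did not pair the libraries. Library values are given for the 3 genes of smallest adjusted p per role and comparison with WT_shCTRL, for genes not called, and for genes moving against the majority; the interaction names its 5 smallest p-values. The genes and lists were chosen with earlier results of these data known. Alternatives were upper quartile and RLE factors, no count filter, equal depth, the replicate block, pairwise fits, DESeq2 1.42.0 and leaving out each library. Limits from counts of 0 cover counting error only.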

Additional observations from a re-analysis of the deposited data

Results flagged for a closer look

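A test of 152 combinations of gene and group for a library far from the rest of its group (Dixon's limit at 95%) picked 8, and chance picks about 1 in 20. In WT_shCTRL, ISG15 was at 420.8 CPM in replicate 6, with the next library at 317.5 CPM, and IFI35 was at 90.88 CPM in the same library, with the next at 73.98 CPM. IFI16 was at 273.2 CPM in WT_shCTRL replicate 5, with the next at 245.1 CPM. DDX60 was at 27.83 CPM in CD33KO_shPTPN6 replicate 4, with the next at 20.86 CPM, and at 13.25 CPM in WT_shPTPN6 replicate 2, with the next at 17.63 CPM. DHX58 was at 7.527 CPM in that WT_shPTPN6 library, with the next at 11.43 CPM. ZBP1 was at 0.2491 CPM in WT_shPTPN6 replicate 6 from a single count, and at 1.165 CPM in WT_shCTRL replicate 6, with the next at 0.4161 CPM.

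The knockdown effect differed between the CD33 knockout line and wild type by the interaction test in 36 genes (knockout minus wild type, log2 units). Among the sensors the differences were 2.17 for DDX58, 0.87 for IFIH1, 0.68 for DHX58, 0.91 for DDX60, 1.19 for IFI16 and 0.98 for EIF2AK2. Among the conjugation genes they were 2.02 for ISG15, 0.57 for UBE2L6, 1.82 for HERC5, 1.16 for HERC6, 1.33 for USP18, 0.74 for DTX3L, 1.40 for PARP9 and 1.15 for PARP14. Among the effectors they were 1.97 for MX1, 1.42 for MX2, 3.17 for RSAD2, 3.01 for CMPK2, 2.56 for ISG20, 2.46 for TRIM22, 0.96 for SAMD9, 1.07 for SAMD9L, 1.44 for PLSCR1, 0.96 for GBP1 and 1.41 for LY6E. Among the ligands and death-related genes they were 1.61 for CXCL10, 1.91 for TNFSF10, 1.24 for XAF1, 1.30 for IFI6 and 3.31 for IFI27. Among the less characterised genes they were 1.24 for IFI35, 2.22 for IFI44, 2.91 for IFI44L, 2.15 for EPSTI1, 0.87 for SP110 and 1.32 for RTP4.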

How the results depend on the processing

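The count of genes lower than WT_shCTRL was 34 in CD33KO_shPTPN6, 35 to 37 in CD33KO_shCTRL and 36 in WT_shPTPN6 under every alternative, and the interaction was above 0 in 34 to 36 genes. Leaving out 1 library at a time moved the count lower in CD33KO_shPTPN6 than in CD33KO_shCTRL between 9 and 17, with 9 without CD33KO_shPTPN6 replicate 5, and the count higher between 2 and 4, with 4 without CD33KO_shPTPN6 replicate 1 or 3. The count lower in CD33KO_shPTPN6 than in WT_shPTPN6 ran from 2 to 4, with 2 without CD33KO_shPTPN6 replicate 1, 3 or 5. Of 259 results of single genes, 23 changed their call under some alternative and none reversed among called values; the cause was not tested. LY6E (CD33KO_shPTPN6 against CD33KO_shCTRL) passed in 10 alternatives, and the DHX58 interaction was lost in 4, with adjusted p up to 0.074.

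Same-numbered libraries of different groups had correlations of their deviations between -0.0493 and 0.0324, so the numbers gave no pairing. With the replicate block, 16 genes were lower in CD33KO_shPTPN6 than in CD33KO_shCTRL, against 14 without it, and the interaction stayed above 0 in 36. ZBP1, MX1 and CXCL10 are limited by depth.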
